A study of Mus musculus with 8 samples.

Results

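The CC chemokines and monocyte receptors described here are 10 genes of a table of 20539, taken by name: the ligands Ccl2, Ccl3, Ccl4, Ccl6, Ccl7, Ccl8, Ccl9 and Ccl21a and the receptors Ccr2 and Cx3cr1. RNA was sequenced from mouse knee articular cartilage on day 7 after surgical transection of the anterior cruciate ligament (ACLT) of 1 hind limb, in mice given an antibody against GDF8 or a placebo antibody. The 4 groups of 2 pools each, named A and B, were anti-GDF8 ACLT, placebo ACLT, anti-GDF8 control and placebo control. The control limb was the uninjured opposite hind limb of mice that had the surgery, so no group came from unoperated mice, and limbs of 1 treatment were not independent animals. The antibodies were REGN647 against GDF8 and REGN1945 as placebo, both at 10 mg/kg under the skin. Mice were 4 to 5 months old and of both sexes. The study's methods give 4 limbs a pool and 8 mice a group, while the labels speak of 4 mice per treatment. They name C57BL/6J and Col1-eGFP mice as the strains treated with antibody without saying which gave the cartilage. A treatment tag of the control samples names the quadriceps, whereas their tissue tag says cartilage.

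CC chemokines are small secreted proteins that draw leukocytes along a concentration gradient and take their name from adjacent cysteines near the start of the mature protein. CCL2 and CCL7 bind CCR2, the receptor by which inflammatory monocytes leave the bone marrow and enter injured joints. CX3CR1, the receptor of the membrane-bound chemokine fractalkine, marks patrolling monocytes and many tissue macrophages, including those that line the synovium. GDF8, or myostatin, is a TGF-beta family protein best known for limiting muscle growth.

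The adjacent cysteines are shown as coding bases, since they are what the 8 ligands share by definition. Each line gives 36 coding bases from GENCODE M21 transcripts for 7 of the ligands, with the adjacent cysteine codons in capitals, and Ccl21b is added as a near-identical copy of Ccl21a.
Ccl2: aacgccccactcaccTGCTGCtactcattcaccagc
Ccl7: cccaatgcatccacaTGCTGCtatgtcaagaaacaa
Ccl8: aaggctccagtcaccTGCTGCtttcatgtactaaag
Ccl9: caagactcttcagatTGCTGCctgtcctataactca
Ccl6: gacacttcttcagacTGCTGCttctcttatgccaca
Ccl4: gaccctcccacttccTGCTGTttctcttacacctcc
Ccl21a: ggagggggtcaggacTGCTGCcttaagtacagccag
Ccl21b: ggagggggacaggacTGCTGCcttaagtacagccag
The coding sequences of Ccl21a and Ccl21b were both 399 bases long and differed at 2 of them, T84A and C194T, with positions counted from the first base of the start codon and the Ccl21a base given first. Over whole coding alignments, with gaps counted as differences, Ccl3 and Ccl4 were 68.1% identical, Ccl7 and Ccl8 64.7%, and Ccl6 and Ccl9 64.6%. In the table, 7 of the 8 ligand genes lie on chromosome 11 in separate stretches. Ccl2 (chr11:81926397-81928279, ENSMUSG00000035385), Ccl7 (chr11:81936538-81938351) and Ccl8 (chr11:82006011-82007625) are on the plus strand of the first. The second holds Ccl9 (chr11:83463745-83469462), Ccl6 (chr11:83478708-83483913) and Ccl3 (chr11:83538670-83540181) on the minus strand and Ccl4 (chr11:83553410-83555509) on the plus strand. Ccl21a is at chr4:42772860-42773993, Ccr2 at chr9:123901987-123913594 and Cx3cr1 at chr9:119730682-119898945. These coordinates span each gene as the table gives them, in a build that the submitters' notes do not tie to the table (they name mm10 and mm39).

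Values are CPM, counts scaled to a library total of 1000000. Depth, read from the step between low values, was 16.4 to 28.1 M (units of 1000000) reads a library. Markers of other tissues were plentiful: erythroid genes took 6.95% to 13.2% of reads and neutrophil genes 2.16% to 3.58%, against 0.0560% to 0.230% for 8 chondrocyte and cartilage matrix genes. Skeletal muscle fiber genes summed to 1981 and 30132 CPM in anti-GDF8 ACLT pools A and B, 468 and 222 CPM in placebo ACLT, 15272 and 25110 CPM in anti-GDF8 control and 27147 and 66259 CPM in placebo control. All 10 chemokine and receptor genes were among the 17401 tested, whose mean over the libraries reached 10 reads at the median depth. Fold changes are on the scale log2(reads at the median depth + 1), which understates changes of genes with few reads, and a gene was called at an adjusted p under 0.05 (limma, Benjamini-Hochberg values across the 17401 genes). Nothing beyond the pools separates replicates, so each p measures the spread between pools. In bulk RNA, fewer cells of a type and less RNA per cell cannot be told apart.

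In anti-GDF8 mice, Ccl2, Ccl7, Ccl8 and Ccl21a rose in ACLT limbs relative to control limbs and none fell, 4 of 10, where 0.598% of all tested genes rose. The median log2 fold change was 0.95 over the 10 genes and -0.04 over all genes. These calls rest on few pools: without anti-GDF8 control pool A 0 of the 10 were called and without pool B 1 (Ccl7), without either placebo ACLT pool 2 (Ccl7 and Ccl21a), and with voom weights in limma 0. In placebo mice 6 rose, the same 4 with Ccl9 and Cx3cr1, and none fell, where 11.6% of all genes rose. The median there was 1.10 over the 10 genes and 0.17 over all genes. Rescaling by a trimmed mean moved the all-gene median in placebo mice to -0.02 and the calls over all genes to 1571 higher and 1365 lower, against 2011 and 701 as deposited, with 6 of the 10 genes called under both.

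Without regard to a test, 7 of the 10 (Ccl2, Ccl3, Ccl4, Ccl7, Ccl8, Ccl9 and Ccl21a) had both ACLT pools above both control pools in anti-GDF8 mice, against 20.2% of all genes. In placebo mice the number was also 7, with Cx3cr1 in place of Ccl4, against 38.8% of all genes. Ccr2 alone had both ACLT pools below both control pools, in anti-GDF8 mice only, and the share of all genes in that direction is not given here. The comparison averaged over both antibodies called Ccl2, Ccl7, Ccl8, Ccl9, Ccl21a and Cx3cr1, where 10.8% of all genes rose. Cx3cr1 was at 0.47 there (limma, adjusted p = 0.0322), with 0.39 to 0.51 and no call when either placebo ACLT pool, either anti-GDF8 control pool, anti-GDF8 ACLT pool A or placebo control pool B was left out, and no call without an intensity trend (adjusted p = 0.0845).

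**Figure D1:**
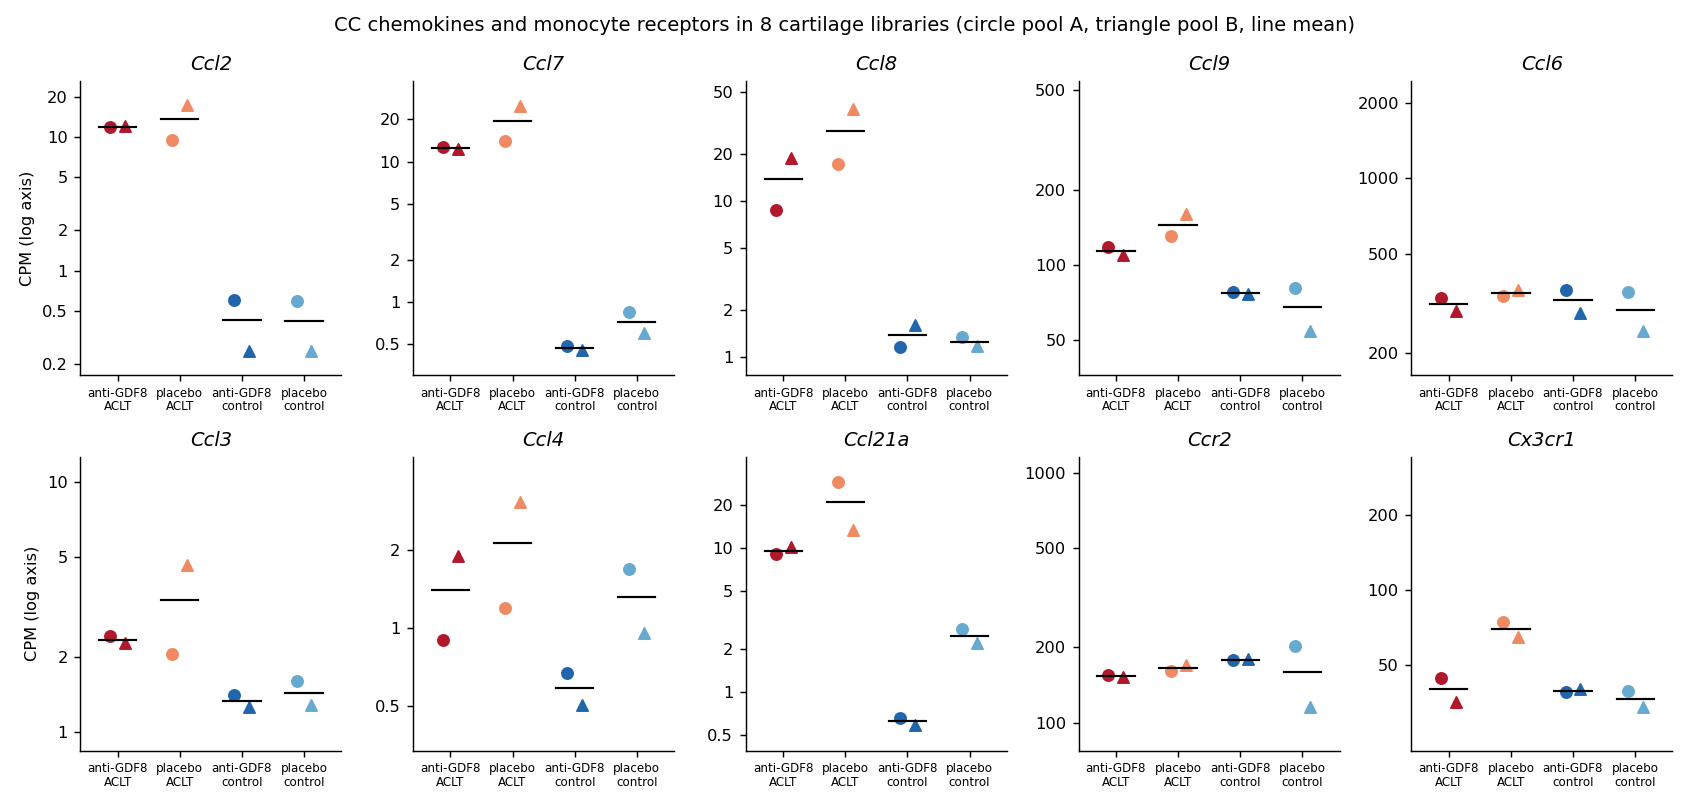
CPM of each gene on a log axis in the 8 libraries, with circles for pool A, triangles for pool B and a line at the mean of the 2 pools. Ccl2, Ccl3, Ccl7, Ccl8, Ccl9 and Ccl21a have all ACLT pools above all control pools, as do 11.7% of all tested genes, whereas Ccl6 does not. Ccr2 overlaps in placebo mice, while in anti-GDF8 mice its ACLT pools lie below its control pools.

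Ccl2, Ccl7 and Ccl8 had the largest changes of the 10 genes in placebo mice. Ccl2, the main ligand of CCR2, had 11.9 and 12.05 CPM in anti-GDF8 ACLT pools and 9.57 and 17.5 CPM in placebo ACLT pools, against 0.608 and 0.252 CPM in anti-GDF8 control pools and 0.596 and 0.249 CPM in placebo control pools. Every ACLT pool lay above every control pool, and the control values rest on 5 to 12 reads each. The log2 fold change was 4.75 in anti-GDF8 mice (95% interval 3.52 to 5.99, limma adjusted p = 0.0150) and 4.89 in placebo mice (3.65 to 6.12, adjusted p = 0.00149).

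Ccl7, a second ligand of CCR2, had 12.7 and 12.4 CPM in anti-GDF8 ACLT pools and 14.0 and 25.0 CPM in placebo ACLT pools, against 0.487 and 0.454 CPM in anti-GDF8 control pools and 0.845 and 0.605 CPM in placebo control pools. Its ACLT and control pools did not overlap either. The log2 fold change was 4.60 in anti-GDF8 mice (limma adjusted p = 0.00513) and 4.61 in placebo mice (adjusted p = 9.4e-04).

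Ccl8, a relative of Ccl2 that in the mouse acts through CCR8, had 8.82 and 18.9 CPM in anti-GDF8 ACLT pools and 17.3 and 39.3 CPM in placebo ACLT pools, against 1.16 and 1.62 CPM in anti-GDF8 control pools and 1.34 and 1.17 CPM in placebo control pools. The pools of each ACLT group lay more than 2-fold apart, yet all of them were above every control pool. Its log2 fold change was 3.19 in anti-GDF8 mice (limma adjusted p = 0.0268) and 4.32 in placebo mice (adjusted p = 0.00148). Between Ccl7 and Ccl8, Ccl12, another CCR2 ligand of the mouse, rose by 3.64 on the log2 scale in placebo mice (adjusted p = 0.00964). Its placebo control values rest on 2 and 3 reads. In anti-GDF8 mice Ccl12 was at 2.38 and was not called (limma adjusted p = 0.243).

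Ccl9 and Ccl6 are rodent ligands of CCR1 and were the most abundant of the ligands per exonic kilobase on average over the 8 libraries, with Ccl6 at 179 and Ccl9 at 33.2 CPM per kilobase. Ccl9 had 118 and 109.6 CPM in anti-GDF8 ACLT pools and 130.2 and 159.6 CPM in placebo ACLT pools, against 77.7 and 76.8 CPM in anti-GDF8 control pools and 81.0 and 54.5 CPM in placebo control pools. Its ACLT and control pools did not overlap, with a log2 value of 0.56 in anti-GDF8 mice that did not pass (limma adjusted p = 0.374) and a rise of 1.12 in placebo mice (adjusted p = 0.00814). Without placebo ACLT pool B the placebo value was 0.97 and was not called (adjusted p = 0.0663).

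Ccl6 had 331 and 296 CPM in anti-GDF8 ACLT pools and 338 and 358 CPM in placebo ACLT pools, against 359 and 290.4 CPM in anti-GDF8 control pools and 351 and 245 CPM in placebo control pools. The groups overlapped. Its log2 fold change was -0.05 in anti-GDF8 mice (95% interval -0.49 to 0.40) and 0.25 in placebo mice (-0.20 to 0.69), and the sign of the anti-GDF8 value turned under trimmed mean scaling (0.012).

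Ccl3 and Ccl4, the macrophage inflammatory proteins that attract monocytes and T cells, were low. Ccl3 had 2.42 and 2.26 CPM in anti-GDF8 ACLT pools and 2.04 and 4.67 CPM in placebo ACLT pools, against 1.40 and 1.26 CPM in anti-GDF8 control pools and 1.59 and 1.28 CPM in placebo control pools. All ACLT pools were above all control pools, but neither comparison passed (log2 0.79 in anti-GDF8 mice, adjusted p = 0.651, and 1.09 in placebo mice, adjusted p = 0.144, limma). Ccl4 had 0.904 and 1.91 CPM in anti-GDF8 ACLT pools and 1.197 and 3.07 CPM in placebo ACLT pools, against 0.669 and 0.505 CPM in anti-GDF8 control pools and 1.69 and 0.961 CPM in placebo control pools. Its placebo groups overlapped, with log2 values of 1.11 in anti-GDF8 mice and 0.57 in placebo mice.

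Ccl21a, a chemokine of lymphatic vessels and lymphoid organs that binds CCR7, had 9.004 and 10.2 CPM in anti-GDF8 ACLT pools and 28.6 and 13.2 CPM in placebo ACLT pools, against 0.662 and 0.588 CPM in anti-GDF8 control pools and 2.72 and 2.19 CPM in placebo control pools. The anti-GDF8 pools were below the placebo pools in both limbs, and ACLT pools were above control pools under both antibodies. The log2 fold change with injury was 3.84 in anti-GDF8 mice (limma adjusted p = 0.0146) and 2.97 in placebo mice (adjusted p = 0.00264). Its estimated reads were whole in 0 of 8 libraries, as were those of Ccl21b, which rose by 3.41 in placebo mice (adjusted p = 0.0157), so the division of reads between these copies is uncertain. The sum of 6 lymphatic endothelium markers was 91.5 to 112.5 CPM in ACLT pools and 72.1 to 103.5 CPM in control pools. Of the 6, 1 (Pdpn) rose in anti-GDF8 mice, where 0.598% of all genes rose, and 2 (Pdpn and Lyve1) in placebo mice, where 11.6% did. The log2 values of 3 (Flt4, Mmrn1 and Reln) were below 0 in each treatment without a call. Prox1 was at 0.58 in anti-GDF8 mice and 0.61 in placebo mice, neither called. The part of lymphatic endothelium in the Ccl21a values was not tested.

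Fibroblast markers also differed between the limbs. The sum of 6 of them (Pdgfra, Col1a1, Col3a1, Dcn, Lum and Thy1) was 9535 and 7428 CPM in anti-GDF8 ACLT pools and 29312 and 17987 CPM in placebo ACLT pools, against 2090.1 and 4443 CPM in anti-GDF8 control pools and 4301 and 7985 CPM in placebo control pools. Of the 6, 2 rose in anti-GDF8 mice, where 0.598% of all genes rose, and 4 in placebo mice, where 11.6% did. None was at 0 in all libraries, and their part in the ligand values was not tested.

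**Figure D2:**
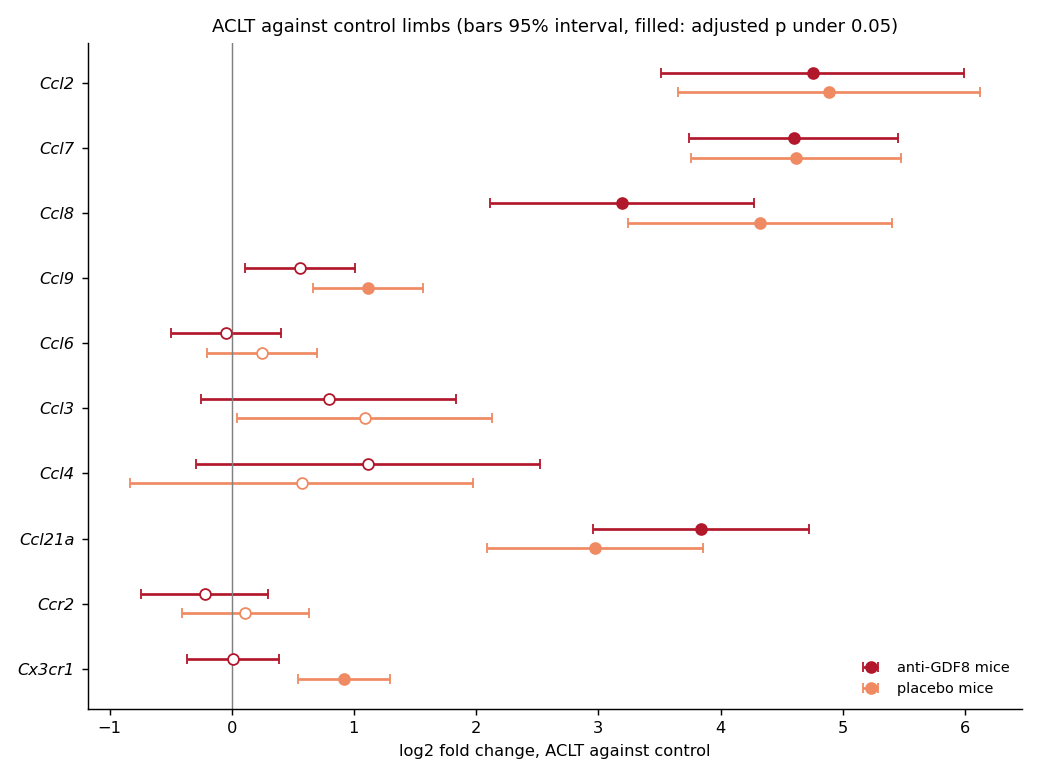
Log2 fold change of ACLT against control limbs for each gene, with bars for the 95% interval, anti-GDF8 mice above placebo mice and filled points for an adjusted p under 0.05. Filled points are Ccl2, Ccl7, Ccl8 and Ccl21a in anti-GDF8 mice, and these with Ccl9 and Cx3cr1 in placebo mice.

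The receptors differed from each other. Ccr2 had 155 and 152 CPM in anti-GDF8 ACLT pools and 160.3 and 171 CPM in placebo ACLT pools, against 178 and 179.9 CPM in anti-GDF8 control pools and 202 and 116 CPM in placebo control pools. Placebo control pools spanned all other values, and the log2 fold change was -0.22 in anti-GDF8 mice (95% interval -0.74 to 0.30) and 0.11 in placebo mice (-0.41 to 0.63). The placebo value depends on that group, being -0.29 without placebo control pool B and 0.51, a call (limma adjusted p = 0.0321), without pool A, and it was -0.071 under trimmed mean scaling.

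Cx3cr1 had 44.5 and 35.6 CPM in anti-GDF8 ACLT pools and 74.0 and 64.9 CPM in placebo ACLT pools, against 38.9 and 40.2 CPM in anti-GDF8 control pools and 39.4 and 34.1 CPM in placebo control pools. The placebo ACLT pools were above the other 6 libraries, which overlapped. The log2 fold change was 0.01 in anti-GDF8 mice (95% interval -0.37 to 0.39, limma adjusted p = 0.993), while Cx3cr1 rose by 0.92 in placebo mice (0.54 to 1.30, adjusted p = 0.00895). Without placebo ACLT pool A the placebo value was 0.82 and was not called (adjusted p = 0.0832).

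Monocyte and macrophage markers differed among themselves. The sum of 14 of them was 2031 and 2176 CPM in anti-GDF8 ACLT pools and 2499 and 2589 CPM in placebo ACLT pools, against 1828 and 1933 CPM in anti-GDF8 control pools and 1946 and 1440.3 CPM in placebo control pools. In anti-GDF8 mice, where Cx3cr1 was at 0.01, 5 rose, against 0.598% of all genes, and in placebo mice 11, against 11.6% of all genes. Itgam, an integrin of myeloid cells, was at -0.52 in anti-GDF8 mice and -0.36 in placebo mice, neither called, and fell over both antibodies (limma adjusted p = 0.0488). Trem2, a lipid receptor of macrophages, was at 1.38 in anti-GDF8 mice and 2.58 in placebo mice, both called, whereas the monocyte marker Ly6c2 was at -0.06 in anti-GDF8 mice and -0.15 in placebo mice, neither called. None of the 14 was at 0 in all libraries, and the part of cell number in the Cx3cr1 value was not tested.

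**Figure D3:**
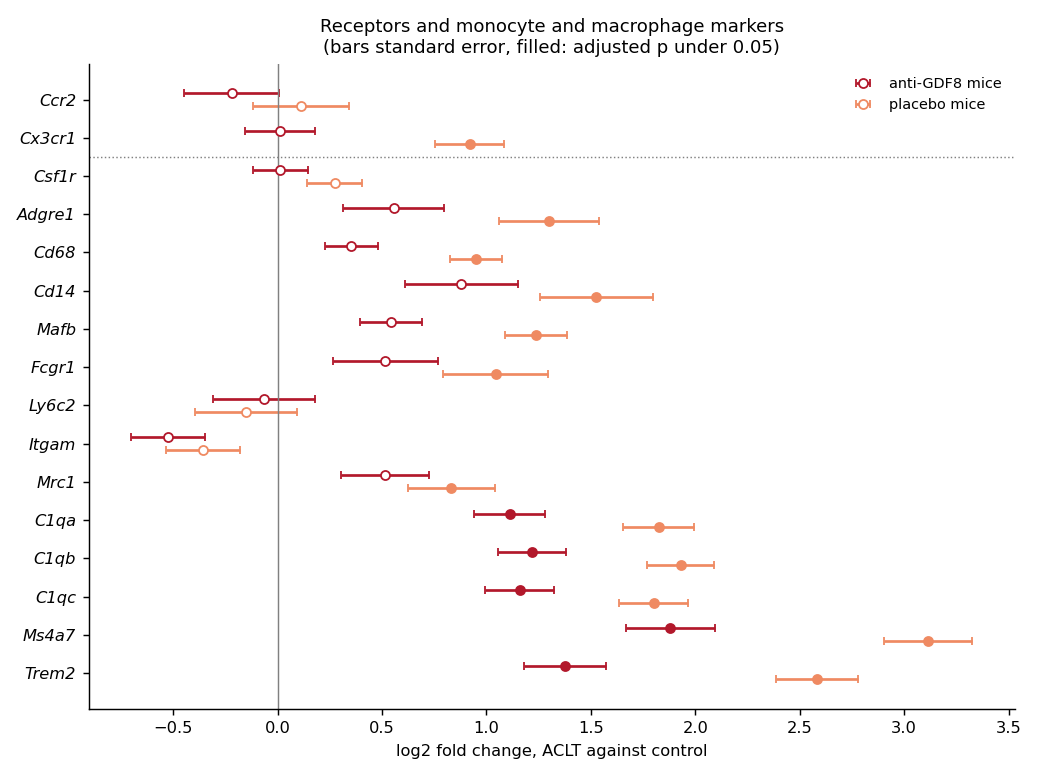
Log2 fold change of ACLT against control limbs for Ccr2, Cx3cr1 and 14 monocyte and macrophage markers, with bars for the standard error, anti-GDF8 mice above placebo mice and filled points for an adjusted p under 0.05. Ccr2 lies near 0 with Csf1r and Ly6c2, while Cx3cr1 in placebo mice is at 0.92, below Ms4a7 at 3.11.

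The make-up of the ligand mRNA also differed with injury. Counted as CPM per exonic kilobase, Ccl2, Ccl7 and Ccl8 together were 15.5% and 22.4% of the 8 ligands in anti-GDF8 ACLT pools and 18.2% and 30.8% in placebo ACLT pools, against 1.46% and 2.04% in anti-GDF8 control pools and 1.80% and 2.00% in placebo control pools. Ccl6 alone was 65.4% and 58.6% in anti-GDF8 ACLT pools and 57.4% and 49.7% in placebo ACLT pools, against 86.0% and 83.4% in anti-GDF8 control pools and 83.5% and 83.6% in placebo control pools. These are shares of 1 sum, so the share of Ccl6 moves with the other ligands, and its own level passed no test.

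**Figure D4:**
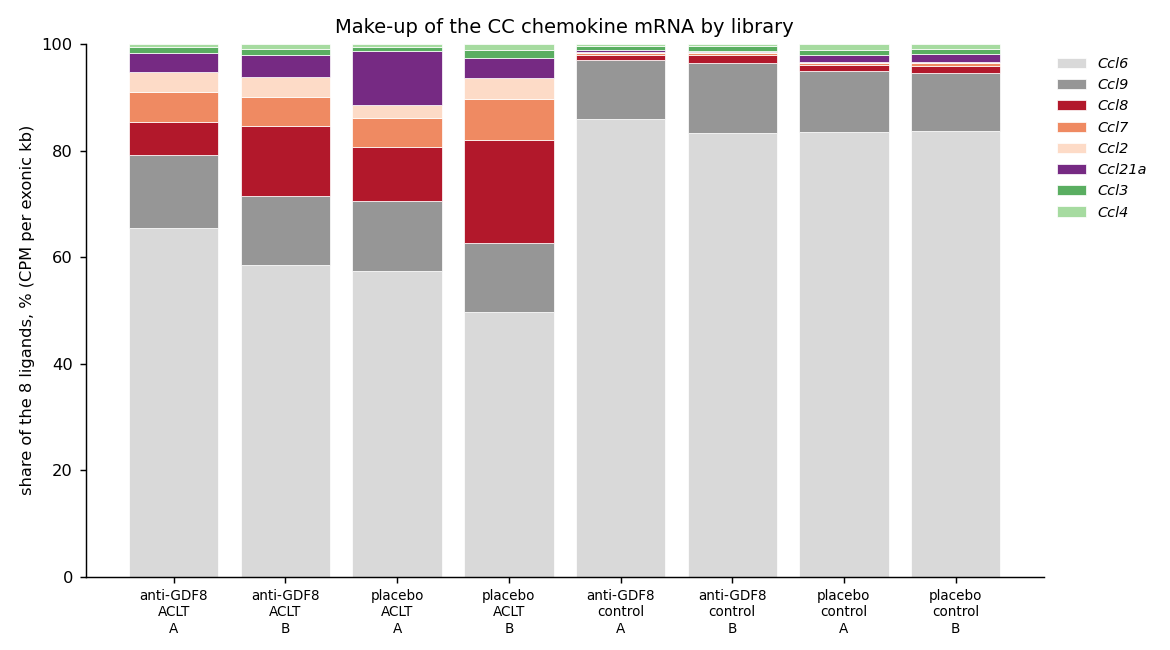
Share of each ligand in the summed CPM per exonic kilobase of the 8 ligands, 1 bar a library, in percent. Ccl6 fills 49.7% to 65.4% of the bar in ACLT limbs and 83.4% to 86.0% in control limbs.

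Over the 4 ACLT pools against the 4 control pools, 6 genes (Ccl2, Ccl3, Ccl7, Ccl8, Ccl9 and Ccl21a) had all ACLT pools above all control pools, as did 11.7% of all tested genes. That separation fixes p at 0.0286 for each of the 6 in a two-sided exact permutation test, the smallest that 70 regroupings allow. The test thus adds nothing to the separation, and the adjusted p over all genes was then 0.187. It also takes the pools as independent, although ACLT and control limbs came from the same mice. Cx3cr1 had p = 0.114 in the same exact test, Ccl4 0.171, Ccl6 0.600 and Ccr2 0.829.

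Whether GDF8 blockade altered these genes was compared directly within each limb. In ACLT limbs, 0 of the 10 passed with limma, and 0% of all tested genes did. At an unadjusted p under 0.05 there were 2, Cx3cr1 and Ccl21a, where 17.3% of all genes fell under it. The 10 log2 values were all below 0 as deposited, with a median of -0.46 against -0.11 over all genes, but those of Ccl2 (0.021) and Ccr2 (0.026) were above 0 under trimmed mean scaling, which brought the all-gene median to 0.02. For 6 of the 10 (Ccl6, Ccl7, Ccl9, Ccl21a, Ccr2 and Cx3cr1) both anti-GDF8 pools were below both placebo pools, as for 35.6% of all genes. Cx3cr1 had the smallest adjusted p, at 0.121 for a log2 value of -0.80 (95% interval -1.18 to -0.42). Ccl21a was at -1.02 (-1.90 to -0.14, adjusted p = 0.235) and Ccl8 at -1.01 (-2.09 to 0.07, adjusted p = 0.316). Without anti-GDF8 ACLT pool A, Cx3cr1 was called at -0.96 (adjusted p = 0.0421), together with 462 genes in all. The group was then pool B alone, the pool with 30132 CPM of muscle fiber markers.

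The remaining values in ACLT limbs were -0.57 for Ccl7, -0.53 for Ccl4, -0.39 for Ccl3, -0.34 for Ccl9, -0.15 for Ccl6, -0.11 for Ccl2 and -0.11 for Ccr2. For Ccl2 the interval ran between -1.35 and 1.12, which takes in changes of 2-fold in either direction, so differences of that size were not detectable with 2 pools a group. The placebo ACLT pools enter both this comparison and that of injury in placebo mice, so the 2 sets of values are not independent.

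In control limbs 0 of the 10 passed with limma, as did 0% of all genes, and 1 was under an unadjusted p of 0.05, where 4.55% of all genes were. That gene was Ccl21a at -1.89 (95% interval -2.77 to -1.003, adjusted p = 0.891), between values of 0.588 to 2.72 CPM. Both anti-GDF8 pools were below both placebo pools for Ccl21a, Ccl4 (-1.07) and Ccl7 (-0.56), 3 of 10, and for 11% of all genes.

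Whether injury changed a gene differently under the antibodies is the drug by injury interaction. With limma 0 of the 10 and 0% of all genes passed, and 1 of the 10 was under an unadjusted p of 0.05, as were 10.3% of all genes. That was Cx3cr1, at -0.91 (95% interval -1.44 to -0.37, adjusted p = 0.449). Ccl8 was at -1.13 (adjusted p = 0.574), Ccl9 at -0.56 (adjusted p = 0.524) and Ccl21a at 0.87 (adjusted p = 0.596). The call of Cx3cr1 and Ccl9 in placebo mice and not in anti-GDF8 mice was therefore not shown to differ between treatments. With voom weights 0 of the 10 were called in ACLT limbs, in control limbs and in the interaction.

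**Figure D5:**
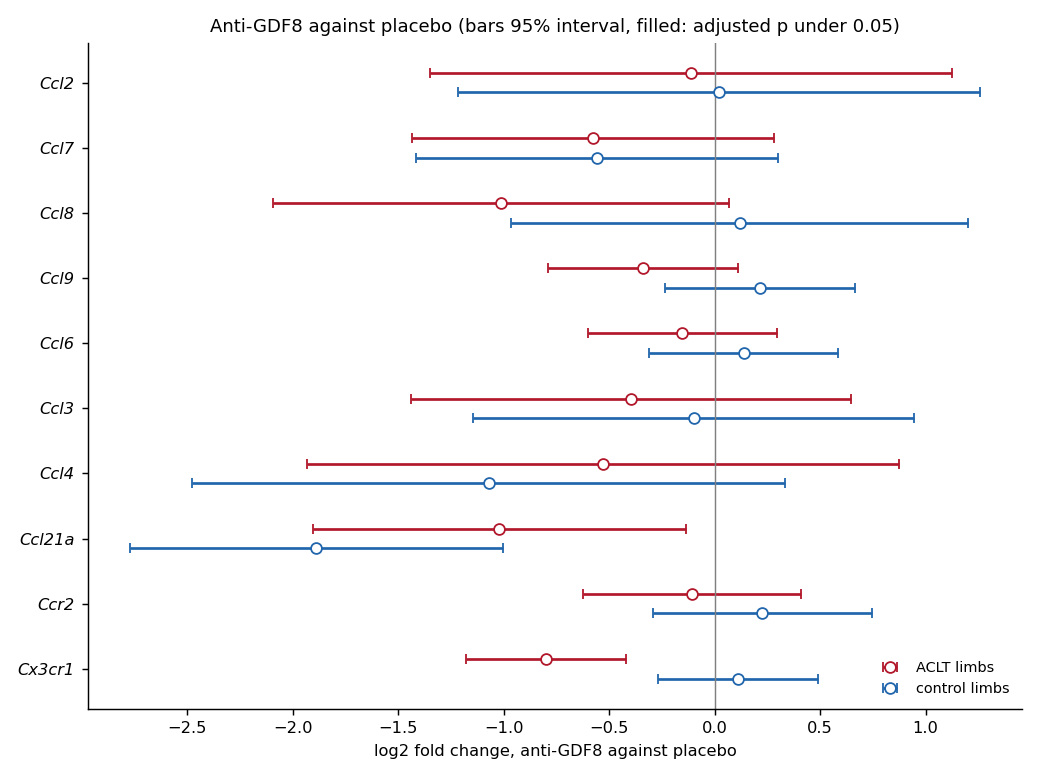
Log2 fold change of anti-GDF8 against placebo for each gene, with bars for the 95% interval and ACLT limbs above control limbs. All points are open, as 0 passed, and the intervals that leave out 0 are those of Cx3cr1 in ACLT limbs and Ccl21a in both limbs.

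Of 30 other chemokine ligands, receptors and atypical receptors listed, 25 were in the table and 23 were tested. In placebo mice 5 rose and none fell, where 11.6% of all genes rose. The list median was 0.19 against 0.17 over all genes. The called genes included Ccl12 and Ccl21b, given above, Ccl19, which like Ccl21a binds CCR7, at 1.502 (limma adjusted p = 0.00747), and Ackr2, a scavenger of inflammatory CC chemokines, at 1.30 (adjusted p = 0.0375). As for Ccl21a, the estimated reads of Ccl19 were whole in 0 of 8 libraries. Over both antibodies, where 10.8% of all genes rose, the eotaxin-type ligand Ccl24 joined the called genes at 1.69 (adjusted p = 0.0226). In anti-GDF8 mice 0 were called, where 0.598% of all genes rose. The antibody comparisons also called 0, and 0% of all genes passed there. Of the genes not called, the 4 with the highest mean were Ccr1, the receptor of Ccl6 and Ccl9, at 0.09 in placebo mice, the erythrocyte and endothelial chemokine binder Ackr1 at 0.22, Ackr4, a scavenger of Ccl19 and Ccl21, at 0.57, and Ccr3, the eotaxin receptor, at 0.19.

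Promoter sequences (RefSeq, GRCm38.p6, 250 bases before the start and 50 after) were found for 7 of the 10 genes. They were searched on both strands for a TATA box (TATAAA), an AP-1 motif (TGANTCA) and the NF-kB consensus, held by 13.6%, 7.81% and 4.51% of 32851 mouse promoters. Of the 7, Ccl8 had a TATA box and Ccl9 had all 3 motifs, and the other 5 had no match in this window. Both are shown for their matches, which are in capitals. Ccl8 is at chr11:82114935-82115234 on the plus strand and Ccl9 at chr11:83578587-83578886 on the minus strand, both in GRCm38.p6.
Ccl8: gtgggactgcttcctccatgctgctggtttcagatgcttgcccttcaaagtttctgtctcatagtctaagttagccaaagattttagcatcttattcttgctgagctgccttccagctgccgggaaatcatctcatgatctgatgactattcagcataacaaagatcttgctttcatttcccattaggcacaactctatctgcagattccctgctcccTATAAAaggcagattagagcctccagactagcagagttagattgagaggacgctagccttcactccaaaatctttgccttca
Ccl9: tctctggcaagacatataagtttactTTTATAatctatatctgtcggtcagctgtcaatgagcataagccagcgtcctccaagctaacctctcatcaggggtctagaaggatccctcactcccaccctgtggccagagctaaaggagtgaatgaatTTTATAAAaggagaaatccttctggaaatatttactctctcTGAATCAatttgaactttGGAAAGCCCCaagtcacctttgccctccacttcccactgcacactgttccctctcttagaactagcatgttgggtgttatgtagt
In Ccl8 the TATA box began 32 bases before the start. In Ccl9 the AP-1 match read TGAATCA, as the pattern searched allows any base at N, and began 53 bases before the start. The NF-kB consensus began 35 bases before it on the other strand. The TATA box matches of Ccl9 began farther off, 92 bases before the start on the strand shown and 94 and 224 bases before it on the other. Those at 92 and 94 bases overlapped. A match is a description of letters and was not tied to the changes by any test.

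Across the 8 libraries, which share the injury contrast, Ccl2 correlated with Ccl7 by 0.99 and Ccl8 by 0.96 and with Ccr2 by -0.01 (Pearson r of log2 values). Of 12055 other genes whose mean reached 100 reads, those most like Ccl2 were Gm10177, Mt2 and Larp6 (0.99, 0.98 and 0.98). Those most like Ccl7 were C1qtnf3, Ifi205 and Pdpn, and those most like Ccl8 were Pepd, Cd34 and Pakap. Cx3cr1 was most like Spp1, the macrophage and matrix protein osteopontin, Itgav and Mtss1 (0.99, 0.98 and 0.98), and Ccr2 like Wsb1, Uhrf1bp1l and Abhd13. For Ccl9 the genes were Psmg4, Psma5 and Rab7b, for Ccl21a Slirp, Znhit1 and Pop5, for Ccl6 Zfc3h1, Med4 and Ube2d2a, for Ccl3 Nme7, Cyth3 and Clec4n, and for Ccl4 Snx14, C4b and Gm14295. These r values describe 8 points that fall into ACLT and control limbs.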

How the data were processed

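Cartilage RNA-seq values came from the deposited table, in which the authors give CPM, counts scaled so that each library sums to 1000000. STAR 2.7.3a, Partek, DESeq2, mm10 and mm39 are named in the submitters' notes, with no role given to any. Depths of 16.4 to 28.1 M (units of 1000000) reads, with a median of 20.1 M, were estimated from the smallest step between CPM values. Under 200 reads, 69.6% to 75.5% of values came out whole to within 0.02, so whole reads were not recovered and no count test was run. Values were expressed as reads at the median depth, 1 was added as pseudocount and log2 taken. Genes averaging fewer than 10 reads were left out, which kept 17401. A single limma model (version 3.58.1, R 4.3.3) with a mean for each of the 4 groups and a mean-variance trend was used for all comparisons, with 4 residual and 4.74 prior degrees of freedom and Benjamini-Hochberg adjustment. The code was tested on simulated data. Other work was done in Python 3.11.15 (matplotlib 3.10.9, pandas 2.3.3, numpy 2.4.6).

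Groups follow the sample descriptions, and pool letters name replicates. The genes and lists were chosen with earlier results of these data known. Named are all 10 genes, every other listed chemokine gene that was called (except 1 that is not reported here), the 4 highest of the rest, and for each of the 10 the 3 genes with the highest Pearson r. Ccr10 and Xcr1 were named after their values were seen, as were single markers of the cell type lists. The alternatives changed the pseudocount (0.5 or 5 reads), the filter (none or a mean of 50 reads), the scaling (trimmed mean with factors of 0.876 to 1.08, or quantile), the variance model (no trend, robust, voom weights), the libraries fitted (those of the comparison alone, or all but 1) and the blocking (letter or title number as replicate block). Muscle RNA-seq was not analysed here.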

Additional observations from a re-analysis of the deposited data

Results flagged for a closer look

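Among the 10 genes and the 23 other tested chemokine genes, 2 receptors had effects of opposite direction in the groups compared, with every pool apart. The share of all tested genes with this pattern was not determined, so the count has no background to be set against. Ccr10, a receptor of skin-homing lymphocytes, had 1.70 and 2.06 CPM in anti-GDF8 ACLT pools and 0.499 and 1.52 CPM in placebo ACLT pools, against 1.16 and 1.31 CPM in anti-GDF8 control pools and 2.04 and 1.82 CPM in placebo control pools. The injury change was higher with anti-GDF8 by 1.67 on the log2 scale, which is also the amount by which the antibody difference was higher in ACLT limbs. Xcr1, a receptor of cross-presenting dendritic cells, had 0.647 and 0.653 CPM in anti-GDF8 ACLT pools and 1.65 and 1.40 CPM in placebo ACLT pools, against 1.40 and 1.19 CPM in anti-GDF8 control pools and 0.646 and 0.641 CPM in placebo control pools, a difference of -2.12 on the log2 scale in both readings. The interaction test of the difference itself did not pass for Ccr10 (limma, adjusted p = 0.494) or Xcr1 (adjusted p = 0.449), and both genes lie near the lower limit of the table.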

How the results depend on the processing

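Under 20 alternatives (19 where the comparison uses all groups), Ccl7 was called in anti-GDF8 mice in 18, Ccl21a in 16, Ccl2 in 14 and Ccl8 in 13. Their log2 values there ranged between 4.15 and 4.67 for Ccl7, 3.49 and 3.92 for Ccl21a, 4.19 and 5.31 for Ccl2, and 2.65 and 3.74 for Ccl8. The 4 calls became 1 (Ccl7) without an intensity trend and 0 with voom weights. In placebo mice Ccl2, Ccl7, Ccl8 and Ccl21a were called in all 20, and Ccl9 and Cx3cr1 in 19 each. Leaving out a library gave 0 to 4 calls in anti-GDF8 mice, 5 to 7 in placebo mice, 5 to 6 over both antibodies, 0 to 1 for the antibody in ACLT limbs and 0 for the antibody in control limbs and for the interaction. The lone pool of a group is then assumed to vary like the others, and fewer pools remain for the spread. A mean of 50 reads as filter left Ccl3 and Ccl4 without a value. Over all genes, calls were 106 in anti-GDF8 mice (1 to 368 under the alternatives), 2712 in placebo mice (678 to 3010), 2565 over both antibodies (1076 to 2898), and 0 for the antibody in ACLT limbs (0 to 462), in control limbs (0 to 1) and for the interaction (0 to 305).

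Among the fold changes given above, signs turned for values that were not called. With trimmed mean scaling these were Ccl6 with injury in anti-GDF8 mice (0.012), Ccr2 with injury in placebo mice (-0.071), and in ACLT limbs Ccl2 (0.021) and Ccr2 (0.026) with antibody, the first also with quantile normalization (0.064). With a library left out, the injury values in anti-GDF8 mice ranged between -0.15 and 0.17 for Cx3cr1 and -0.20 and 0.11 for Ccl6. In placebo mice they ranged between -0.089 and 1.24 for Ccl4, -0.012 and 0.50 for Ccl6, and -0.29 and 0.51 for Ccr2. In ACLT limbs the antibody values ranged between -0.55 and 0.32 for Ccl2, -0.98 and 0.19 for Ccl3, and -1.19 and 0.13 for Ccl4. Fold changes not given above turned too, most often those of Ccl7 (7 of 19 alternatives) and Ccl2 (5 of 19) in the interaction and of Ccl2 with antibody in control limbs (4 of 20). The cause was not tested. Trimmed mean scaling also put the median of all genes at -0.01 for the antibody in control limbs and 0.03 for the interaction, against 0.09 and -0.21 as deposited.

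The control limb is the opposite limb of an injured mouse, but whether pools of equal letter or number held the same mice is not given in the sources used here. Deviations from the group means correlated by 0.00324 to 0.296 for equal letters (0.296 between anti-GDF8 ACLT and anti-GDF8 control, 0.0407 between placebo ACLT and placebo control) and -0.296 to 0.209 for equal title numbers. With the letter as a replicate block 4 genes were called in anti-GDF8 mice, 6 in placebo mice and 0 for the antibody, and with the title number as a replicate block the counts were the same. With 2 pools a group, Ccl2 in control limbs rests on 5 to 12 reads.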

Other observations

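Within placebo ACLT the ligands did not order the pools alike. Pool B had the higher value for Ccl2, Ccl3, Ccl4, Ccl7 and Ccl8, by 1.83, 2.28, 2.57, 1.79 and 2.27 times, whereas Ccl21a was 2.16 times higher in pool A. The sum of fibroblast markers was also higher in pool A, at 29312 CPM against 17987 CPM in pool B, mostly through Col1a1 (17912 against 6874 CPM). Dcn and Lum were higher in pool A too, whereas Col3a1 (5932 against 6209 CPM), Pdgfra and Thy1 were higher in pool B. Ccr2 and Ccl6 differed between the pools by 1.06 times each. The part of fibroblasts in these values was not tested.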
